A study of Homo sapiens with 4 samples.

Results

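The insulin-like growth factor (IGF) binding proteins, the IGF and insulin receptors and the receptor substrates were described across 4 prostate cancer cell lines. The members were chosen by gene symbol, with earlier results of these data known. Of the 10 symbols, 9 (IGFBP2, IGFBP3, IGFBP4, IGFBP5, IGF1R, IGF2R, INSR, IRS1 and IRS2) were found among the 22637 genes of the table. IGFBP6 was not analysed here. Messenger RNA was sequenced from LNCaP, a castration-sensitive line, from its olaparib-resistant subline LN-OlapR, from C4-2B, a castration-resistant line, and from its olaparib-resistant subline 2B-OlapR. Olaparib inhibits PARP, an enzyme of DNA repair. The resistant sublines had been grown for a long period in rising concentrations of olaparib and were then kept in medium with olaparib. All 4 lines carried the label untreated and were plated without olaparib before RNA was taken, and the part of earlier culture with the drug in the ratios was not tested. C4-2B is itself a descendant of LNCaP. Each resistant line was compared mainly with its parent, 2B-OlapR with C4-2B (the 2B pair) and LN-OlapR with LNCaP (the LN pair). With 1 library per line a line and its parent could not be compared by a test, and every interval of a ratio covers counting error only and not the spread between cultures. The 2 resistant lines could be tested together against the 2 parental lines, with the lineage pair as a block, and that test has 1 residual degree of freedom.

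IGF1 and IGF2 are growth factors that act mainly through IGF1R, a receptor tyrosine kinase that passes its signal through the docking proteins IRS1 and IRS2 to PI3K-AKT and MAPK signaling. The secreted binding proteins hold IGFs in the extracellular space and can either withhold them from the receptor or deliver them to it. IGFBP3 is the main carrier of IGFs in serum and also has actions that do not depend on IGF. In the prostate, IGF signaling is known as a growth and survival pathway of epithelial cells.

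The libraries held between 19950537 and 26394267 counts. Levels are given as normalized CPM (counts scaled to library size), with library sizes adjusted by the TMM method of edgeR, and 3 counts, the limit that a count of 0 allows, corresponded to between 0.112 and 0.147 CPM. All 10 luminal prostate markers were present, with a summed level between 3979 and 7267 CPM, against at most 0.557 CPM for the basal list, of which KRT14 alone was in the table and KRT5, KRT15 and TP63 were not analysed here. At most 2 markers of each neuroendocrine, fibroblast, blood and endothelial list were present, with summed levels no higher than 16.3 CPM. The LNCaP library stood apart: KLK3, which encodes prostate-specific antigen, was at 53.1 CPM there and between 1870 and 2685 CPM in the other libraries. The ratios of members in the LN pair, and those of other genes where the direction or the 2-fold call changes, are therefore given beside the ratio of LN-OlapR to C4-2B, which does not use that library but compares lines of different lineage. The part of the LNCaP library in the ratios of the LN pair was not tested.

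Among the binding proteins, IGFBP3 carried the largest difference between a resistant line and its parent. The gene (ENSG00000146674.16) lies on the minus strand of chromosome 7 from 45912245 to 45921874 in the GENCODE release 29 annotation of GRCh38, and its longest transcript has 6 exons and 2412 nucleotides. Its level was 5.06 CPM (95% Wilson interval 4.28 to 5.98, 136 counts) in LNCaP and 13.2 CPM (11.8 to 14.8, 308 counts) in LN-OlapR. Its level was 6.35 CPM (5.35 to 7.54, 130 counts) in C4-2B and 92.3 CPM (88.2 to 96.5, 1912 counts) in 2B-OlapR. The parental lines thus lay close together at the bottom, LN-OlapR stood above both, and 2B-OlapR stood far above the rest. The log2 ratio of 2B-OlapR to C4-2B was 3.86 (95% counting interval 3.60 to 4.11), or 14.5-fold, and ranked 60 from the top among 15527 genes tested, those whose mean level in the 2 libraries reached 1 CPM. The log2 ratio of LN-OlapR to LNCaP was 1.38 (1.09 to 1.67), or 2.60-fold, and ranked 430 from the top among 15373 genes. Against C4-2B in place of LNCaP it was 1.05 (0.76 to 1.35), or 2.07-fold, so LN-OlapR was at least 2-fold above either parental library. C4-2B and LNCaP did not differ beyond counting error, with a log2 ratio of 0.33 (−0.02 to 0.68). In bulk RNA a higher level in all cells and a high level in some of them cannot be told apart. The ratio of the 2B pair exceeded that of the LN pair by 2.47 on the log2 scale (2.09 to 2.86).

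**Figure D1:**
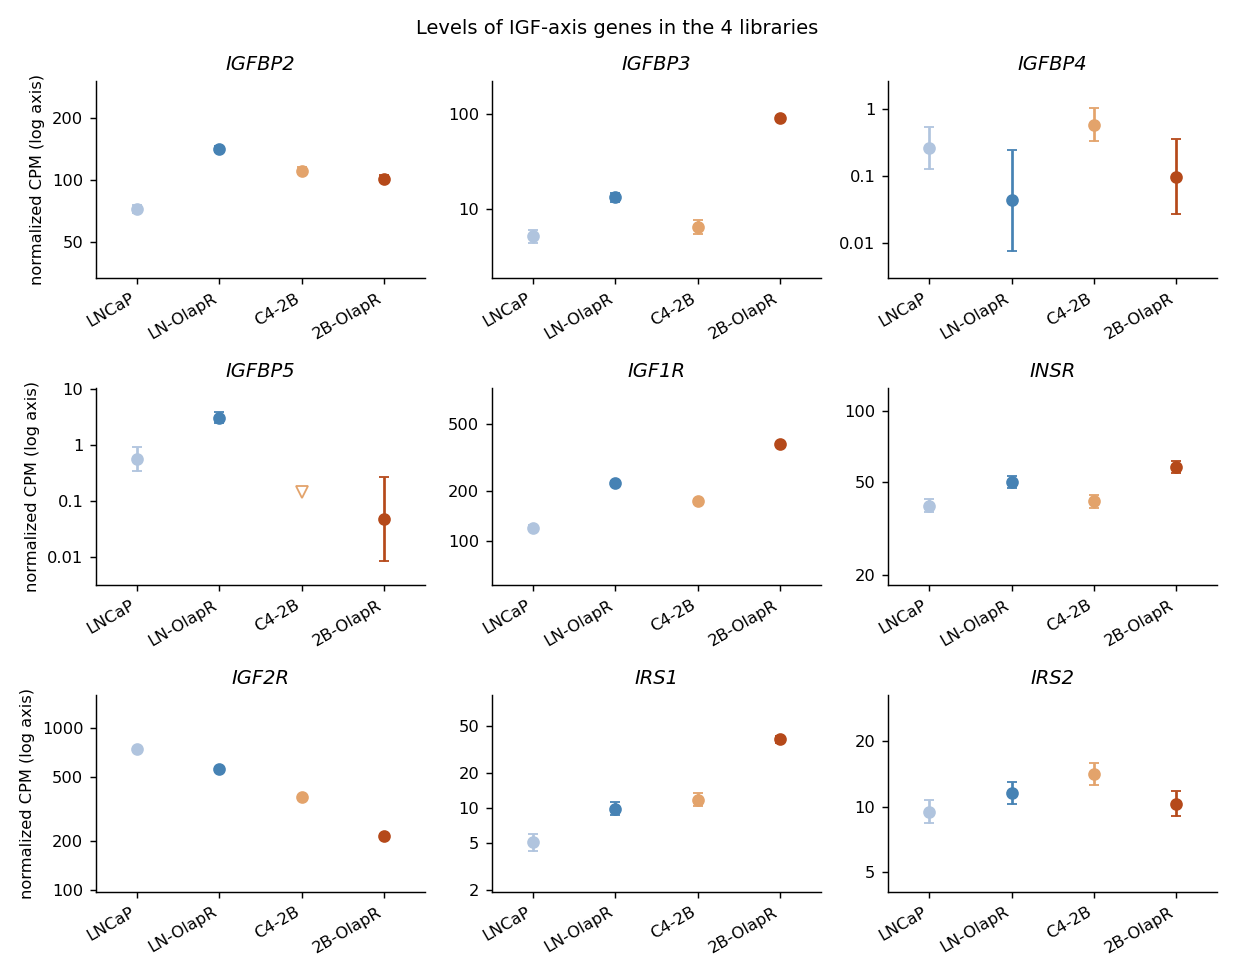
Normalized CPM of each gene on a log axis in the 4 libraries, 1 library per line, with points for the level and bars for the 95% Wilson counting interval; the open triangle for IGFBP5 in C4-2B marks a count of 0, drawn at the 3-count limit of 0.147 CPM. IGFBP3 is at 6.35 CPM in C4-2B and 92.3 CPM in 2B-OlapR, while IGF2R is highest in LNCaP at 741.8 CPM and lowest in 2B-OlapR at 214.7 CPM.

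IGFBP2, which also binds both IGFs, did not follow IGFBP3. The gene (ENSG00000115457.10) is on chromosome 2, plus strand, positions 216632828 to 216664436. Its level was 72.6 CPM (1952 counts) in LNCaP, 140.9 CPM (3287 counts) in LN-OlapR, 111.1 CPM (2274 counts) in C4-2B and 101.7 CPM (2108 counts) in 2B-OlapR. LN-OlapR was the highest library and LNCaP the lowest, and the 2B pair lay between them. The log2 ratio in the LN pair was 0.96 (0.88 to 1.04), just under 2-fold, and it was 0.34 (0.27 to 0.42) against C4-2B. In the 2B pair the log2 ratio was −0.13 (−0.21 to −0.04), so the resistant line was slightly below its parent. C4-2B was 1.53-fold above LNCaP.

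IGFBP5, a binding protein that associates with the extracellular matrix, was detected mainly in the LN pair. The gene (ENSG00000115461.5) neighbours IGFBP2 on chromosome 2, on the minus strand from 216672105 to 216695525. LNCaP had 15 counts (0.558 CPM), LN-OlapR 73 counts (3.13 CPM), C4-2B 0 counts, which allows up to 0.147 CPM, and 2B-OlapR 1 count (0.0483 CPM). LN-OlapR was the sole library above 1 CPM. The log2 ratio of LN-OlapR to LNCaP was 2.45 (1.66 to 3.24), or 5.47-fold, and against the 3-count limit of C4-2B the level of LN-OlapR was at least 21.3-fold higher. C4-2B was at least 3.81-fold lower than LNCaP by the same limit. No fold is given for the 2B pair, in which both libraries were at or under the limit.

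IGFBP4, a binding protein that is a substrate of the protease PAPPA, was near the limit of detection throughout. The gene (ENSG00000141753.7) is on chromosome 17, plus strand, positions 40443461 to 40457731. LNCaP had 7 counts, LN-OlapR 1 count, C4-2B 12 counts and 2B-OlapR 2 counts, so no level exceeded 0.586 CPM. Both resistant lines thus had fewer counts than their parents. The exact counting interval of the log2 ratio of 2B-OlapR to C4-2B ran from −5.80 to −0.44, that of LN-OlapR to LNCaP ran from −8.10 to 0.36, and the gene was under the minimum level in each comparison.

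IGF1R, the receptor of IGF1 and IGF2, was higher in each resistant line than in its parent. The gene (ENSG00000140443.15) is on chromosome 15, plus strand, positions 98648539 to 98964530. Its level was 120.4 CPM (3238 counts) in LNCaP, 221.2 CPM (5159 counts) in LN-OlapR, 173.4 CPM (3548 counts) in C4-2B and 379.5 CPM (7863 counts) in 2B-OlapR. The resistant lines held the highest 2 levels, and each step in the order exceeded counting error. 2B-OlapR was 2.19-fold above C4-2B, a log2 ratio of 1.13 (1.07 to 1.19). LN-OlapR was 1.84-fold above LNCaP, a log2 ratio of 0.88 (0.81 to 0.94). Against C4-2B the log2 ratio of LN-OlapR was 0.35 (0.29 to 0.41), the same direction at a smaller size. C4-2B was 1.44-fold above LNCaP, so the parental lines differed too.

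INSR, the insulin receptor and the closest relative of IGF1R among the members, varied least of the receptors. The gene (ENSG00000171105.14) lies on the minus strand of chromosome 19 from 7112255 to 7294034. Its level was 39.7 CPM (1066 counts) in LNCaP, 50.0 CPM (1166 counts) in LN-OlapR, 41.3 CPM (845 counts) in C4-2B and 58.1 CPM (1203 counts) in 2B-OlapR. The parental lines did not differ beyond counting error, and both resistant lines were above them by less than 2-fold. The log2 ratio was 0.49 (0.36 to 0.62) in the 2B pair, 0.33 (0.21 to 0.45) in the LN pair and 0.28 (0.15 to 0.40) for LN-OlapR against C4-2B.

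IGF2R, the cation-independent mannose 6-phosphate receptor, which takes up IGF2 for degradation and sorts lysosomal enzymes, ran in the opposite direction to IGF1R. The gene (ENSG00000197081.16) is on chromosome 6, plus strand, positions 159969099 to 160113507. Its level was 741.8 CPM (19942 counts) in LNCaP, 556.0 CPM (12968 counts) in LN-OlapR, 374.2 CPM (7658 counts) in C4-2B and 214.7 CPM (4449 counts) in 2B-OlapR. Each resistant line was below its own parent, and both lines of the 2B pair were below both lines of the LN pair. 2B-OlapR was 1.74-fold below C4-2B (log2 ratio −0.80, −0.85 to −0.75). The log2 ratio of the LN pair was −0.42 (−0.45 to −0.38). C4-2B against LNCaP gave −0.99 (−1.03 to −0.95), larger in size than either resistant pair, and LN-OlapR against C4-2B gave 0.57 (0.53 to 0.61), so the direction for LN-OlapR depended on which parental library it was set against. AIRN, which overlaps IGF2R on the opposite strand, had between 1 and 19 counts per library.

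IRS1, a docking protein of IGF1R and INSR, had the second largest ratio of the 2B pair among the members. The gene (ENSG00000169047.6) lies on the minus strand of chromosome 2 from 226731317 to 226799759. Its level was 5.10 CPM (137 counts) in LNCaP, 9.82 CPM (229 counts) in LN-OlapR, 11.8 CPM (241 counts) in C4-2B and 38.7 CPM (801 counts) in 2B-OlapR. 2B-OlapR stood apart from the other libraries. The log2 ratio in the 2B pair was 1.71 (1.51 to 1.92), or 3.28-fold, and ranked 266 from the top among the genes tested. The log2 ratio in the LN pair was 0.94 (0.64 to 1.25), or 1.92-fold. Against C4-2B it turned to −0.26 (−0.53 to 0.004 by the exact interval), so LN-OlapR was above LNCaP but not above C4-2B. C4-2B was 2.31-fold above LNCaP.

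IRS2, the other docking protein, varied little and did not share the pattern of IRS1. The gene (ENSG00000185950.9) lies on the minus strand of chromosome 13 from 109752698 to 109786568. Its level was 9.49 CPM (255 counts) in LNCaP, 11.5 CPM (269 counts) in LN-OlapR, 14.1 CPM (289 counts) in C4-2B and 10.3 CPM (214 counts) in 2B-OlapR. C4-2B was the highest library, and 2B-OlapR could not be separated from LN-OlapR or from LNCaP by counting error. The log2 ratio was −0.45 (−0.71 to −0.20) in the 2B pair, 0.28 (0.03 to 0.53) in the LN pair and −0.29 (−0.53 to −0.05) for LN-OlapR against C4-2B.

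Counted together, 3 of the 7 members tested in the 2B pair (IGFBP3, IRS1 and IGF1R) were at least 2-fold higher in 2B-OlapR, against 4.42% of all genes tested, and 0 were at least 2-fold lower, against 5.65%. In the LN pair 2 of 8 (IGFBP5 and IGFBP3) were at least 2-fold higher, against 4.64% of all genes, and 0 were at least 2-fold lower, against 4.83%. The median log2 ratio of the members was 0.49 in the 2B pair, beside −0.0003 over all genes tested, and was 0.91 in the LN pair, beside −0.004. For LN-OlapR against C4-2B in place of LNCaP the median of the members was smaller, at 0.35, beside 0.01 over all genes tested. IGFBP4 was under the minimum level in each comparison, and IGFBP5 was under it in the 2B pair and between the parental lines. In the LN pair and between the resistant lines IGFBP5 passed the minimum only through LN-OlapR, at 3.13 CPM. LNCaP was at 0.558 CPM and 2B-OlapR at 0.0483 CPM, so the calls of IGFBP5 are partly set by the filter. Between the parental lines 1 of 7 (IRS1) was at least 2-fold higher in C4-2B, against 8.00%, and 0 were at least 2-fold lower, against 7.18%. Between the resistant lines 2 of 8 (IGFBP3 and IRS1) were at least 2-fold higher in 2B-OlapR, against 8.93%, and 2 of 8 (IGFBP5 and IGF2R) were at least 2-fold lower, against 9.45%. These last comparisons share libraries with the resistant pairs. Because the members were chosen with earlier results of these data known, their counts beside the shares of all genes are a description only.

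**Figure D2:**
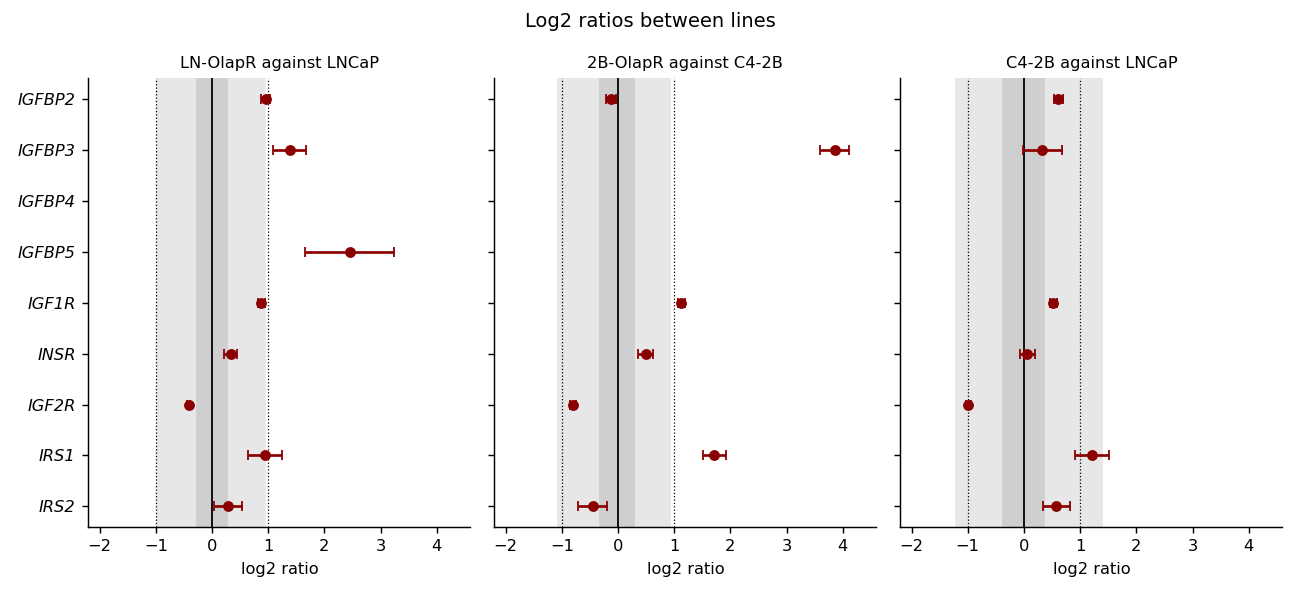
Log2 ratio of each member, with bars for the 95% counting interval, in the LN pair, the 2B pair and between the parental lines; dark and light grey bands hold the middle 50% and 90% of all genes tested, dotted lines mark 2-fold, and genes under the minimum level have no point. In the 2B pair IGFBP3 at 3.86, IRS1 at 1.71 and IGF1R at 1.13 lie beyond the light band, and IGF2R is the lowest member in all 3 panels.

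The resistant pairs share no library, so the same call in each rests on separate libraries. C4-2B descends from LNCaP and each line had 1 library, so the pairs are not replicates of each other. Of 14602 genes tested in both pairs, 122 (0.836%) were at least 2-fold higher in both resistant lines, and IGFBP3 was the only member among them. IGF1R and IRS1 were past 2-fold in the 2B pair and at 1.84-fold and 1.92-fold in the LN pair. IGF1R, INSR, IRS1 and IGFBP3 were higher and IGF2R was lower in each resistant line than in its parent with intervals that left out 0, whereas IGFBP2 and IRS2 were higher in the LN pair and lower in the 2B pair.

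Tested together, with edgeR's quasi-likelihood test of resistant against parental lines and the lineage pair as a block, no member passed a Benjamini-Hochberg adjusted p of 0.05, and 0.00% of 15645 genes did in either direction. At an unadjusted p under 0.05 the edgeR test found 625 of the 15645 genes higher and 654 lower in the resistant lines. Of the 7 members tested, 3 were among the higher (IGFBP3, IGF1R and IRS1) and 1 among the lower (IGF2R). These unadjusted counts are not calls. The log2 fold change of IGFBP3 was 2.63 by this fit, with an adjusted p of 0.513. For IGF1R the adjusted p was 0.379 by edgeR, and both genes were higher in 2 of 2 resistant lines. DESeq2 with the same block called IGFBP3 (2.63 ± 0.531 SE, adjusted p 0.000195) and IGF1R (1.01 ± 0.209 SE, adjusted p 0.000362) higher, beside 0.499% of all genes, and called no member lower, beside 0.550%. The calls thus depended on the tool. Both tests take the 2 pairs as their only replication, although the pairs are not replicates of each other. Their SE and p therefore do not measure the spread between cultures of a line. IGFBP4 and IGFBP5 were under the minimum mean of 1 CPM over the 4 libraries.

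Ratios between genes of the same library do not depend on scaling between libraries, and they showed the balance within each line. These ratios and the levels of this paragraph are per kilobase of the longest protein-coding transcript. IGF1R transcripts amounted to 0.186 of IGF2R transcripts (0.180 to 0.193) in LNCaP. The ratio was 0.457 (0.442 to 0.472) in LN-OlapR and 0.532 (0.511 to 0.553) in C4-2B. It was 2.03 (1.96 to 2.10) in 2B-OlapR, the sole library in which IGF1R exceeded IGF2R. IRS1 relative to IRS2 was 0.451 in LNCaP, 0.714 in LN-OlapR and 0.699 in C4-2B. It reached 3.14 (2.70 to 3.65) in 2B-OlapR, where the order of the substrates was again the reverse of the other lines. IGFBP3 relative to IGFBP2 was between 0.0341 and 0.0559 in the other 3 libraries and 0.541 (0.509 to 0.576) in 2B-OlapR, so IGFBP2 was the more abundant of these binding proteins in each library, although on the longest IGFBP2 transcript, a retained intron form, the ratio in 2B-OlapR would be 1.66. IGF1R relative to INSR was above 1 in every library, from 2.22 in LNCaP to 4.78 in 2B-OlapR.

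**Figure D3:**
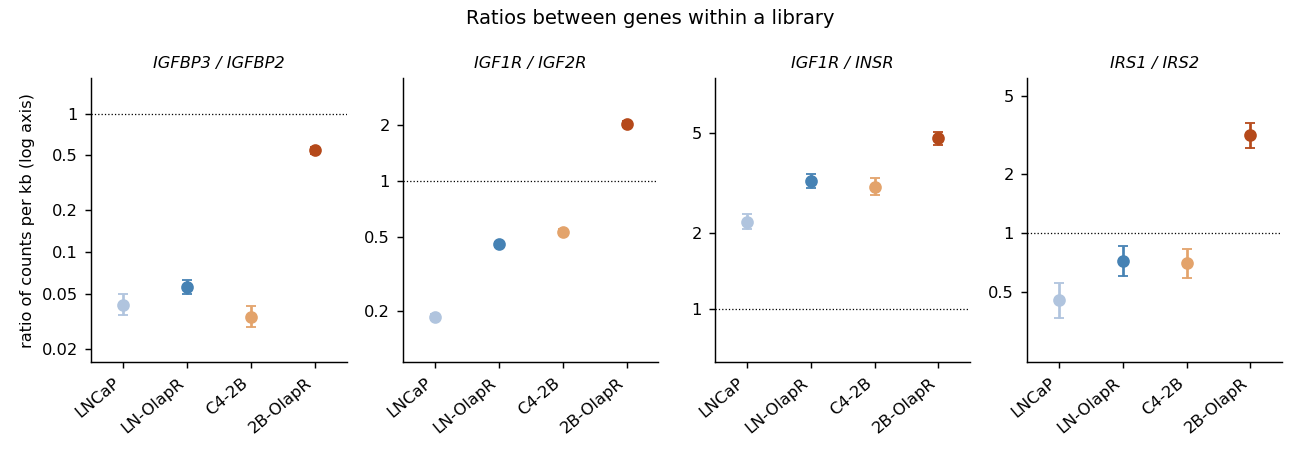
Ratio of counts per kilobase of the longest protein-coding transcript between pairs of members within each library, on log axes, with 95% counting intervals as bars and a dotted line at equal levels. IGF1R over IGF2R and IRS1 over IRS2 cross the line in 2B-OlapR, at 2.03 and 3.14, and lie below it in the other 3 libraries.

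As means over the 4 libraries, levels per kilobase ran from IGFBP2 at 74.1 CPM per kilobase through IGF2R at 33.6, IGF1R at 18.3, IGFBP3 at 12.1, INSR at 5.28, IRS1 at 1.68 and IRS2 at 1.40 down to IGFBP5 at 0.150 and IGFBP4 at 0.112. The places of IGFBP3 above INSR and of IRS1 above IRS2 came from 2B-OlapR alone. In LNCaP, LN-OlapR and C4-2B, IGFBP3 was at 2.10, 5.47 and 2.63 CPM per kilobase, below INSR at 4.43, 5.58 and 4.61. The value of IGFBP2 depends on the transcript chosen, since its longest annotated transcript is a retained intron form of 4414 nucleotides, on which the mean is 24.2. In 2B-OlapR IGFBP3 reached 38.3 CPM per kilobase, beside IGF1R at 31.0 and IGF2R at 15.3. With all exons merged in place of the longest transcript it was 20.2, below IGF1R at 27.2, and its mean over the libraries was 6.39, so the order of IGFBP3 and IGF1R in 2B-OlapR depended on the length used.

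The promoters of the 3 members past 2-fold in the 2B pair are shown because these genes were higher together in 2B-OlapR. All 9 members matched the RefSeq promoter table of GRCh38.p14. The 250 bases upstream of the RefSeq start are printed 5′ to 3′ on the strand of the gene, with each match to the GC box (GGGCGG or, on the other strand, CCGCCC) in capitals. The windows are chr7:45921273-45921522 on the minus strand for IGFBP3, chr15:98648289-98648538 on the plus strand for IGF1R and chr2:226799821-226800070 on the minus strand for IRS1. The IGFBP3 window lies within the GENCODE span of the gene, which begins further upstream.
IGFBP3: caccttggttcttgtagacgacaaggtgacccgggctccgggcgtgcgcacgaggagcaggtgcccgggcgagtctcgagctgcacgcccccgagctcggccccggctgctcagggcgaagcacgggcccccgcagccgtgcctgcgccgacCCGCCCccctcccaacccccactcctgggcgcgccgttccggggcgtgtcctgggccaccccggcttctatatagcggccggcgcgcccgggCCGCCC
IGF1R: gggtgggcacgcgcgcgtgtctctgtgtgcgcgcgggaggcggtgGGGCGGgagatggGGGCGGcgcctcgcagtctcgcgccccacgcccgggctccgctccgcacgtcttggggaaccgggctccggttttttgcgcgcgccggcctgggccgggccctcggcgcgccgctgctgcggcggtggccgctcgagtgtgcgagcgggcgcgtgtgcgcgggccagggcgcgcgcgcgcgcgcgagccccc
IRS1: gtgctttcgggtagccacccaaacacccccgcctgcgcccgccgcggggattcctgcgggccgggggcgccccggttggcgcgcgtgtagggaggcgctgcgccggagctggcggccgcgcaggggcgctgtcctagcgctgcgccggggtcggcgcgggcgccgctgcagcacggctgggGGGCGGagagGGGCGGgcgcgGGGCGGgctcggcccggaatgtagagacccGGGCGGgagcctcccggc
GC content was 76.0% for IGFBP3, 81.2% for IGF1R and 80.8% for IRS1, beside a median of 58.0% over 35116 promoters. The GC box occurred 2 times in the IGFBP3 window, 2 times in the IGF1R window and 4 times in the IRS1 window, and 42.6% of all promoters held at least 1. Neither CCAAT (or ATTGG), which 32.0% of promoters held, nor TATAAA (or TTTATA), which 10.7% held, was found in these 3 windows. IGF2R, INSR and IRS2, which were not past 2-fold in the 2B pair, had GC-rich windows as well. They had 79.2% GC and 6 GC boxes, 78.4% and 4, and 76.4% and 5. IGFBP4 had 71.6% and 1, IGFBP5 had 61.2% and 0, and the IGFBP2 windows had 56.4% to 69.2% and at most 1. These features were thus not particular to the 3 genes shown, and not all members shared them. A match is a stretch of letters and does not show that a factor binds there.

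The other genes of the pathway came from a list of 77 symbols, of which 69 were in the table. In the 2B pair 5 of 60 tested (8.33%) were at least 2-fold higher, against 4.42% of all genes, and 5 of 60 were at least 2-fold lower, against 5.65%, with a median log2 ratio of −0.08. In the LN pair 4 of 58 (6.90%) were at least 2-fold higher, against 4.64%, and 0 were lower, against 4.83%, with a median of −0.06. HTRA1 and ADAM12 in the 2B pair, and IGF2 and ADAM12 in the LN pair, were under 1 CPM in the parental line. They entered the higher counts only through the resistant line. The medians of the list were close to 0 and below those of the members. The list was also chosen with earlier results of these data known. EGFR, among the 5 higher in the 2B pair, is in it because the study's introduction names EGFR with IGFBP3.

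The ligands had other patterns than the receptors. For IGF1, LNCaP had 176 counts (6.55 CPM), LN-OlapR 209 (8.96 CPM), C4-2B 1602 (78.3 CPM) and 2B-OlapR 637 (30.7 CPM), so both lines of the 2B pair were above both lines of the LN pair. Its log2 ratio was −1.35 (−1.48 to −1.22) in the 2B pair, where the resistant line was lower, 0.45 (0.16 to 0.74) in the LN pair and 3.58 (3.35 to 3.80) for C4-2B against LNCaP. Against C4-2B the log2 ratio of LN-OlapR was −3.12 (−3.33 to −2.92), the opposite direction. For IGF2, LNCaP had 10 counts, LN-OlapR 39, C4-2B 18 and 2B-OlapR 1, and its log2 ratio in the LN pair was 2.12 (1.13 to 3.10), or 0.91 (0.11 to 1.70) against C4-2B. INS and IGFBP1 were not analysed here.

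Proteases that cleave IGF binding proteins, and their inhibitors, held several of the larger ratios. HTRA1, a secreted serine protease, went from 7 counts in C4-2B to 73 counts in 2B-OlapR, a log2 ratio of 3.27 (2.19 to 4.36), while LNCaP held 31 counts and LN-OlapR 14. ADAM12, a metalloprotease that cleaves IGFBP3, had a log2 ratio of 2.30 (1.17 to 3.43) from 7 and 37 counts in the 2B pair. In the LN pair its log2 ratio was 1.26 (0.48 to 2.04) from 19 and 40 counts, and it was the only list gene past 2-fold in both pairs. ADAM12 was at 0.342 CPM in C4-2B and 0.707 CPM in LNCaP, so in each pair it reached the minimum mean only through the resistant line. STC1, a secreted inhibitor of PAPPA, was lower in 2B-OlapR with a log2 ratio of −1.43 (−2.01 to −0.85). LNCaP had 15 counts, LN-OlapR 13, C4-2B 86 and 2B-OlapR 32, so C4-2B was the highest library. The kallikreins KLK2 and KLK3, androgen-regulated serine proteases, had log2 ratios of 2.56 and 5.66 in the LN pair, against −0.08 and −0.37 in the 2B pair, and against C4-2B the log2 ratio of LN-OlapR was 1.60 (1.55 to 1.64) for KLK2 and 0.16 (0.14 to 0.17) for KLK3.

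Among binding partners and signaling genes, LRP1, an endocytic receptor, was lower in 2B-OlapR with a log2 ratio of −1.77 (−2.01 to −1.53), and its ratio was −0.10 (−0.23 to 0.02) in the LN pair and 0.38 (0.23 to 0.53) for LN-OlapR against C4-2B. GRB10, an adaptor that restrains insulin and IGF1 receptor signaling, was lower in 2B-OlapR at −1.46 (−1.54 to −1.38) and in LN-OlapR at −0.68 (−0.76 to −0.60), or −1.35 (−1.43 to −1.28) against C4-2B. DEPTOR, an inhibitor of mTOR, was higher in 2B-OlapR at 1.33 (0.94 to 1.71). Its level was 9.97 CPM in LNCaP, 15.3 CPM in LN-OlapR, 3.57 CPM in C4-2B and 8.98 CPM in 2B-OlapR. C4-2B was thus the lowest library, and 2B-OlapR was below both lines of the LN pair. None of the 11 PI3K-AKT genes tested in each resistant pair was past 2-fold in either direction. EGFR, the receptor of epidermal growth factor, was at 74.4 CPM in LNCaP, 102.6 CPM in LN-OlapR, 195.6 CPM in C4-2B and 474.2 CPM in 2B-OlapR. Its log2 ratio was 1.28 (1.22 to 1.33) in the 2B pair, compared with 0.46 (0.38 to 0.55) in the LN pair, and against C4-2B the log2 ratio of LN-OlapR was −0.93, or 1.91-fold lower. IGF2BP2, an RNA-binding protein named for its IGF2 target, had a log2 ratio of 1.29 (0.77 to 1.82) in the 2B pair, from 40 and 100 counts. LNCaP had 1 count and LN-OlapR 7, both fewer than C4-2B.

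**Figure D4:**
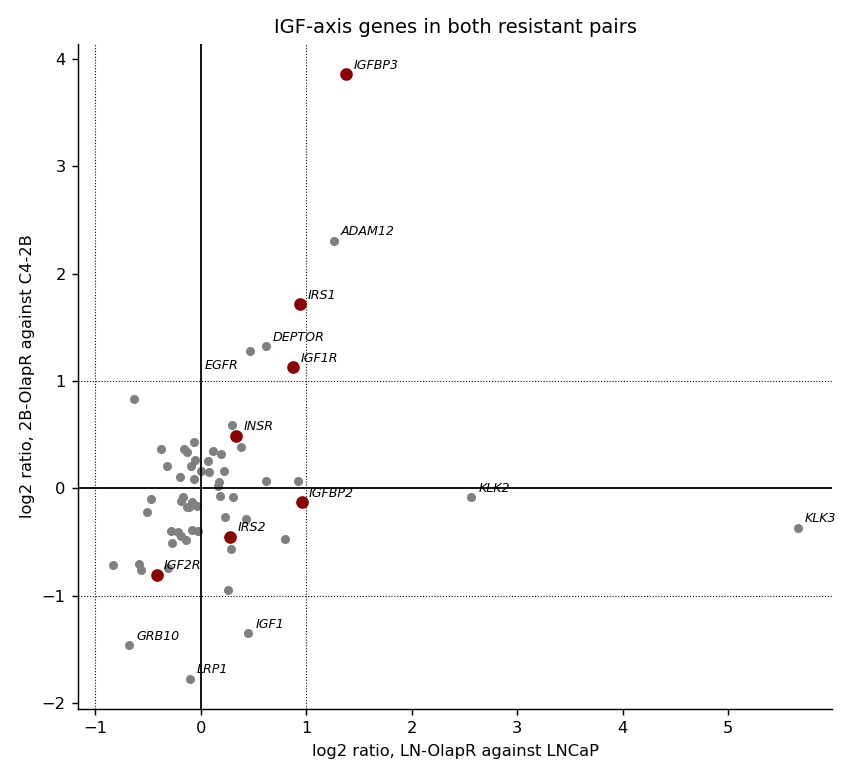
Log2 ratio in the LN pair (x axis) against that in the 2B pair (y axis) for the members (red) and the other genes of the IGF pathway list (grey) tested in both and reported here, with dotted lines at 2-fold. IGFBP3, at 1.38 and 3.86, and ADAM12, at 1.26 and 2.30, are the points past 2-fold on both axes, and IGF1R and IRS1 lie just under the line on the x axis.

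The neighbours of IGFBP3 on chromosome 7 that were in the table did not share its pattern, but none of them was close. The nearest protein-coding gene, IGFBP1 at 18.6 kb, was not analysed here. ADCY1, an adenylate cyclase gene 189 kb away, had a log2 ratio of −0.64 (−0.77 to −0.52) in the LN pair, from 1357 and 753 counts, and of 0.77 (0.46 to 1.08) in the 2B pair, from 132 and 228 counts, and LN-OlapR against C4-2B gave 2.32 (2.05 to 2.59). TNS3, 1353 kb away on the other side, had 253 counts in LNCaP and between 8 and 11 in the other libraries. HUS1, a DNA damage checkpoint gene 2041 kb away, had log2 ratios of −0.25 (−0.41 to −0.09) in the LN pair and 0.31 (0.13 to 0.49) in the 2B pair. For LN-OlapR against C4-2B the log2 ratio of HUS1 was 0.12 (−0.06 to 0.31). No neighbour in the table reached the 14.5-fold ratio of IGFBP3, or 2-fold, in the 2B pair.

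Over the 4 libraries, the genes nearest in pattern to IGFBP3 among 9913 candidates were PTGER4, GRIN3A, PTPRK, ADD3 and PINK1, by the Euclidean distance between log2 levels centred on each gene's mean (0 for an identical pattern). PTGER4, which encodes a prostaglandin E2 receptor, was nearest, at a distance of 0.48, with 2.64, 5.02, 3.62 and 37.9 CPM in LNCaP, LN-OlapR, C4-2B and 2B-OlapR. GRIN3A, a glutamate receptor subunit gene, followed at 0.62, with 3.39, 7.80, 6.30 and 85.1 CPM in the same order. PTPRK, a receptor tyrosine phosphatase gene, was at 1.06, ADD3, a gene of the membrane skeleton, at 1.08, and PINK1, which encodes a mitochondrial kinase, at 1.36, with 15.5, 21.4, 14.3 and 79.1 CPM. All 5 were highest in 2B-OlapR and higher in each resistant line than in its parent, which is what nearness to IGFBP3 selects for. PTGER4 and GRIN3A reached the minimum mean of 10 CPM for candidates only through 2B-OlapR. The candidates share 4 libraries, so nearness is a description only.

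**Figure D5:**
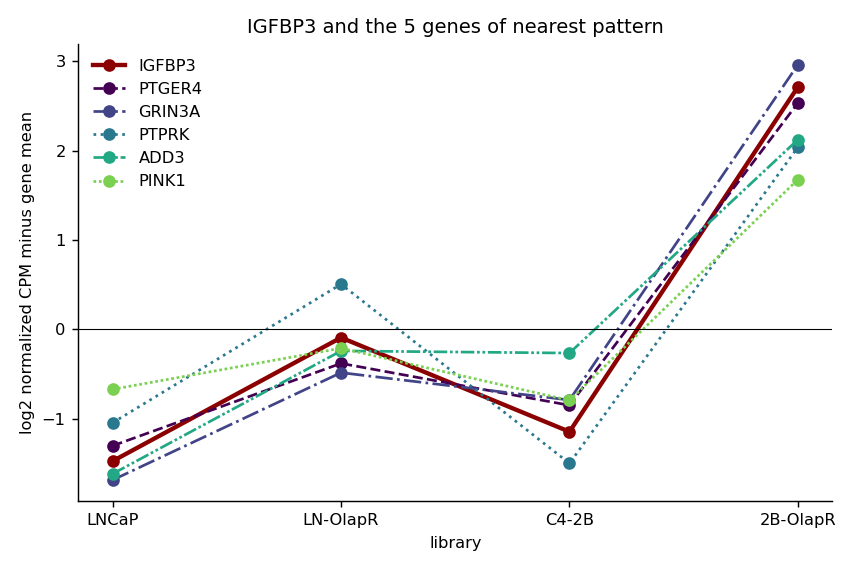
Log2 normalized CPM of IGFBP3 (thick red line) and the 5 genes of nearest pattern in each library, after subtracting the mean of each gene over the 4 libraries; lines join the libraries for legibility only. Each of the 6 genes peaks in 2B-OlapR, and GRIN3A reaches the highest centred value there.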

How the data were processed

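Each of the 4 prostate cancer lines gave 1 stranded mRNA library. The authors deposited estimated counts per gene, of which 46.2% were not whole numbers, and each gene summed to at least 10 over the 4 libraries. The submitters' processing notes name STAR, Partek and GRCh38/hg38, and the counting tool, its strand setting and the annotation are not given in the sources used here. The design had assumed counts, so the estimated counts were rounded. TMM factors came from edgeR 4.0.16 (R 4.3.3). Other values were computed in Python 3.11.15 with pandas 2.3.3 and SciPy 1.17.1. Log2 ratios used a pseudocount of 0.5 counts, a normal 95% interval from the 2 counts, and were analyzed where the mean level of the 2 libraries reached 1 normalized CPM. Between a line and its parent a difference was called from 2-fold, since neither was replicated. Resistant against parental lines were fitted with edgeR's quasi-likelihood test, with the lineage pair as a block. The code was tested on simulated data.

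Gene positions and lengths are from GENCODE release 29, and promoters from RefSeq. Genes named were the members, EGFR, the ligands and IGFBP1, pathway list genes past 2-fold in a resistant pair, up to 3 protein-coding neighbours of IGFBP3 on each side, and the 5 genes nearest to it in pattern with a mean of at least 10 CPM. Alternatives were scaling by total counts, DESeq2 1.42.0 size factors or upper quartiles, a minimum mean of 0.1 or 10 CPM, a pseudocount of 2 counts, other lengths and another measure of likeness. The resistant against parental fit, with no block and DESeq2 as its alternatives, LN-OlapR against C4-2B, other scalings of 2B-OlapR against LN-OlapR and the protein-coding length were added after the data were seen. The members and lists were chosen with earlier results of these data known. A pathway list gene that meets the rule is included in the list's counts but is not reported here.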

Additional observations from a re-analysis of the deposited data

Results flagged for a closer look

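IGFBP2 and IRS2 had log2 ratios of opposite direction in the 2 resistant pairs, with 1 library per line. The ratio of IGFBP2 was 0.96 in the LN pair and −0.13 in the 2B pair, so that the 2B pair minus the LN pair was −1.08 (95% counting interval −1.20 to −0.97). The ratio of IRS2 was 0.28 in the LN pair and −0.45 in the 2B pair, a difference of −0.73 (−1.09 to −0.38). The difference between the pairs was not tested, and against C4-2B in place of LNCaP the log2 ratio of LN-OlapR was 0.34 for IGFBP2 and −0.29 for IRS2.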

How the results depend on the processing

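With the lineage pair as a replicate block, edgeR called 0 members higher and 0 lower in the resistant lines, and it called as many with no replicate block. DESeq2 with the block called 2 higher. Leaving out 1 library leaves the blocked fit no residual degrees of freedom, so none was left out. Scaling by total counts, DESeq2 size factors or upper quartiles changed no sign of a member's log2 ratio and moved none by more than 0.0842. In the resistant pairs and in C4-2B against LNCaP, a pseudocount of 2 changed no sign and moved none by more than 0.104. That pseudocount was not applied to 2B-OlapR against LN-OlapR, where IGFBP5 had 1 and 73 counts. Total counts shifted the median of all genes in the LN pair to −0.09. With C4-2B in place of LNCaP the ratio of IGFBP3 in LN-OlapR was 1.05, in the same direction, and those of IGF2R, IRS1 and IRS2 changed sign. A minimum mean of 10 CPM, which tests fewer genes, left 0 members and 2 list genes at least 2-fold higher in the LN pair, 1 list gene higher in the 2B pair, and 0 members higher and 2 list genes lower in C4-2B against LNCaP. A minimum of 0.1 CPM, which admits more genes, gave 1 member and 2 list genes lower in the LN pair. In the 2B pair it gave 1 member and 9 list genes lower. In C4-2B against LNCaP it gave 2 members and 9 list genes higher and 1 member lower. The lower member in each resistant pair was IGFBP4, which was near the limit of detection. Shares of all genes at a minimum of 0.1 or 10 CPM are not given here, so these counts have no background beside them. By Pearson correlation, which ignores the size of a change, 0 of the 5 genes nearest to IGFBP3 stayed among the 5. Depth limits IGFBP4, IGFBP5 in the 2B pair and IGF2, with few counts.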
